A study of Homo sapiens with 3 samples.

Results

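H1299 and A549 are both lines of human non-small cell lung cancer, and the comparison described here sets the ribosome footprints of the first against those of the second across all coding genes. H1299 was derived from a lymph node metastasis and is known for a mutation of NRAS. A549 comes from a lung adenocarcinoma and is known for mutations of KEAP1, STK11 and SMARCA4 and for a deletion that takes CDKN2A and its neighbour MTAP. The study sequenced the footprints of these lines and of HBE, a line of bronchial epithelial cells, with 1 library per line; all lines grew without treatment in complete DMEM medium. A gene was taken by its symbol, its reads were summed over all transcripts of that symbol, and the sum was divided by the reads on coding (NM) transcripts of the library. Of 19268 coding gene names, 18713 had at least 20 reads over both libraries and were compared. Each line is represented by a single library, so each ratio describes these libraries without replicates, no test was run, and the intervals cover counting error only.

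Ribosome profiling sequences the short stretches of RNA that a ribosome covers when nuclease digests the rest, so that reads on a transcript count the ribosomes on it and reflect both the amount of the mRNA and how densely it is translated. These cannot be told apart in footprints alone. Among pathways known to differ between lung cancer lines, that of NRF2 is well described. NRF2 is a transcription factor that KEAP1 marks for degradation, and cells with a damaged KEAP1 keep high levels of its targets, which make glutathione, reduce aldehydes and quinones and supply NADPH. Cancer-testis antigens are proteins of germ cells whose genes, mostly on the X chromosome, are silent in most adult tissues and active in some tumours.

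The library of H1299 held 35751992 mapped reads, 28478839 of them on coding transcripts (79.7%). That of A549 held 38268527 mapped reads and 31304697 on coding transcripts (81.8%), and that of HBE 43580281 and 34505579. The unit RPM stands for reads per 1000000 coding reads, so that 1 RPM was 28.5 reads in H1299 and 31.3 reads in A549. The 10 genes with most reads took 31.0% of all gene reads in H1299 and 31.4% in A549. TREML2, a receptor of myeloid cells, alone took 15.2% of the coding reads in H1299 and 15.3% in A549, and its ratio lay close to 1 (4331372 reads in H1299, against 4804695 in A549). IL1RL1 took 2.85% in both lines, and CPD took 2.69% in H1299 and 2.96% in A549. Others of the 8 genes with over 1% of the coding reads in a line differed more, in both directions. CCDC170 took 2.24% in H1299 and 4.31% in A549, ARIH2 took 2.12% and 1.16%, and BICD2 took 2.20% and 1.58%. Whether ribosomes or other protected RNA gave the reads of genes with such large shares was not tested, since read positions were not analysed.

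For most genes the share of footprints in the 2 lines differed by less than 2-fold. The median log2 ratio of H1299 over A549, with 0.5 read added to each count, was 0.02 over all 18713 genes. Between -1 and 1 lay 16250 genes (86.8%), and between -0.5 and 0.5 lay 11640 (62.2%). The 5th and 95th percentiles were -1.21 and 1.1, and the 1st and 99th were -2.77 and 1.97. A gene was called higher in H1299 when the exact 95% interval of its ratio lay wholly above 2, and lower when the interval lay wholly below 0.5. By this rule 767 genes were higher in H1299 (4.1% of the genes compared) and 903 were lower (4.83%), together 8.92%. The lower side reached further: of the called genes, 158 were lower at least 8-fold and 68 were higher at least 8-fold.

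**Figure D1:**
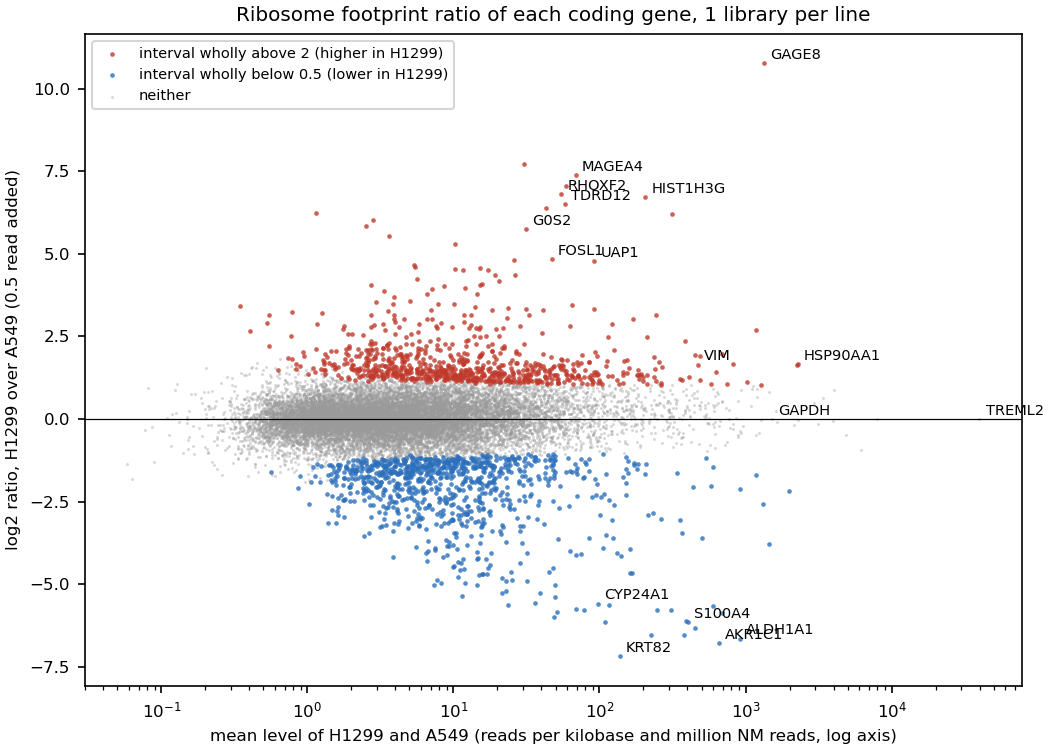
Log2 ratio of H1299 over A549 for each coding gene against its mean level in both lines (RPM per kilobase, log axis), 1 library per line, Y-linked genes not drawn. Red points are genes with an interval wholly above 2 and blue points those with an interval wholly below 0.5; the cloud centres on a median of 0.02, GAGE8 stands alone at the top, and genes of the AKR1C and keratin families lie at the bottom.

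More genes were called at high level. Ranked by level per length, the lowest 20% of the genes had 1.18% called in either direction, the following groups of that size 4.92%, 8.36% and 12.1%, and the highest 18.1%. The ratios themselves also spread more at high level, with the 5th and 95th percentiles of log2 at -0.88 and 0.83 in the lowest group and -1.79 and 1.37 in the highest, and the part of read number in the rise was not tested. At the other end, 290 genes had an interval wholly between 0.9 and 1.1. Among them were GAPDH, the glycolytic dehydrogenase, with 61094 reads in H1299, against 66835 in A549, and ENO1, the enolase of the same pathway, with 37698 reads in H1299, against 43924 in A549. The interleukin receptor gene IL1RL1 had 810769 reads in H1299, against 892475 in A549, and the histone gene HIST2H2AA4 had 34409 reads in H1299, against 38420 in A549. For these genes the libraries held the same share of reads within this range.

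Genes of the known genotypes were read first. CDKN2A, which encodes the inhibitor p16 of the G1 kinases (chr9:21967751-21995300 in hg19), had 680 reads in H1299, against 153 in A549 (4.89-fold higher, 95% interval 4.09 to 5.86) and 147 in HBE. MTAP, the methionine salvage enzyme encoded beside it (chr9:21802635-21937650), had 1525 reads in H1299, against 452 in A549 (3.71-fold higher, 95% interval 3.34 to 4.13) and 132 in HBE. Both genes thus differed in the direction of the known loss, yet neither had 0 reads in A549, with 23.9 RPM in H1299, against 4.89 RPM in A549, for CDKN2A. HBE had fewer reads of both genes than A549, so low counts alone do not mark the loss and do not check the labels. CDKN2B, the neighbour of CDKN2A that encodes p15, had 626 reads in H1299, against 445 in A549 and was not called. Not all of these neighbouring genes therefore separated the lines. NRAS, a GTPase of growth factor signalling, had 1013 reads in H1299, against 588 in A549 (1.89-fold higher, 95% interval 1.71 to 2.1) and was not called. KEAP1 (1051 reads in H1299, 1233 in A549), the kinase STK11 (605 reads in H1299, 611 in A549) and the chromatin remodeller SMARCA4 (1038 reads in H1299, 1141 in A549) had ratios near 1. For each list described from here on, the counts of members called and the median log2 ratio are given. They are to be read beside 4.1% of all genes called higher, 4.83% lower and a median of 0.02. Both shares depended on level. In the highest group by level per length, 342 of 3743 genes were called higher and 334 lower, with a median of 0.12. In the lowest group, 31 of 3743 were called higher and 13 lower, with a median of -0.01. The lists were not compared with genes of like level, and the part of level in their counts was not tested.

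Markers of the tissue gave little to separate the lines. Genes of alveolar and airway cells, to which A549 is often likened, had 0 of 24 higher and 0 lower, median 0.01. The surfactant genes SFTPC (35 reads in H1299, 40 in A549) and SFTPA1 (66 reads in H1299, 79 in A549) and the lung lineage factor NKX2-1 (140 reads in H1299, 242 in A549) all stayed under 8 RPM in both lines, and the surfactant protein D gene SFTPD, not called either, had 2325 reads in H1299, against 1659 in A549. SCGB1A1, which marks club cells, had under 20 reads over both libraries. Leukocyte genes had 1 of 19 higher and 0 lower, median -0.15, and the called one was CD68, a lysosomal protein of macrophages and other cells, with 983 reads in H1299, against 426 in A549. Erythroid and endothelial genes had 0 of 9 higher and 0 lower, median 0.06.

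**Figure D2:**
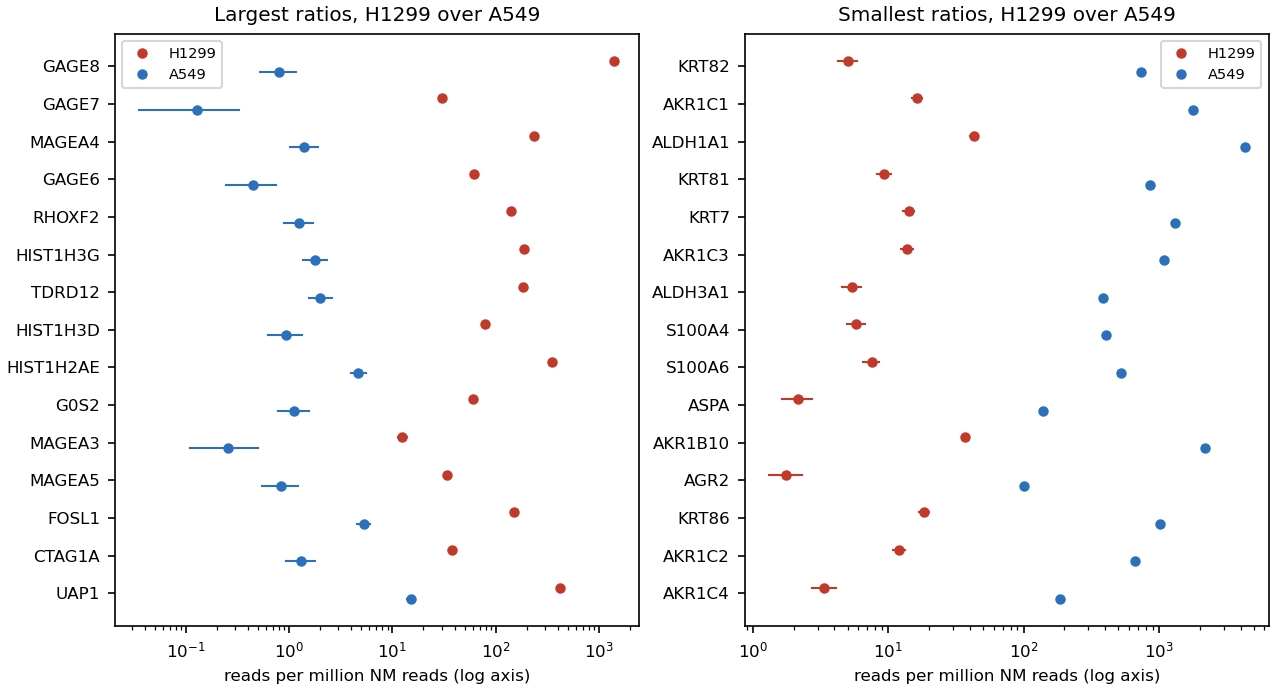
RPM (log axis) in H1299 (red) and A549 (blue) for the 15 genes with the largest ratio (left) and the 15 with the smallest (right), with exact 95% Poisson intervals of the counts. On the left GAGE8 has 1417 RPM in H1299, against 0.799 RPM in A549; on the right ALDH1A1 has 42.8 RPM in H1299, against 4289.9 RPM in A549.

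Targets of NRF2 were lower in H1299 as a group. Of 36 listed targets, all measured, 30 were called lower and none higher, with a median log2 ratio of -2.92, where 4.83% of all genes were called lower. Their reads summed to 2103 RPM in H1299, against 17143 RPM in A549. The list was chosen with earlier results of these data known, and its counts are a description of these 2 libraries.

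The reductases of the list, which turn aldehydes, ketones and quinones into alcohols or hydroquinones, lay furthest out (0 of 8 higher and 6 lower, median -4.63). AKR1C1, a hydroxysteroid dehydrogenase at chr10:5005445-5025475, had 465 reads in H1299, against 56162 in A549 (109.9-fold lower, 95% interval 100.3 to 120.6). AKR1C3, which makes testosterone and prostaglandins in steroid tissues, had 390 reads in H1299, against 34367 in A549 (80.2-fold lower, 95% interval 72.5 to 88.8), and AKR1B10, an aldose reductase relative, was 58.9-fold lower. HBE stood on the side of H1299 for the last, with 633 reads. NQO1, the quinone reductase, was lower by less (148.6 RPM in H1299, against 1640.0 RPM in A549, 11.04-fold lower), and the carbonyl reductases CBR1 (777 reads in H1299, 1628 in A549) and CBR3 (156 reads in H1299, 314 in A549) were not called.

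The enzymes that supply NADPH had 0 of 6 higher and 5 lower, median -2.94. PGD, a dehydrogenase of the pentose phosphate pathway, had 4252 reads in H1299, against 38506 in A549 (8.24-fold lower, 95% interval 7.98 to 8.51), and the transketolase TKT had 3599 reads in H1299, against 28238 in A549 (7.14-fold lower). The malic enzyme ME1 was 8.51-fold lower and the transaldolase TALDO1 3.8-fold lower, so that the oxidative and the non-oxidative branch both had fewer footprints in H1299. IDH1, which makes NADPH outside this pathway, was 1.74-fold lower (2387 reads in H1299, 4571 in A549) and not called.

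All 9 genes of glutathione and thioredoxin were called lower (0 of 9 higher and 9 lower, median -2.43). GPX2, a glutathione peroxidase of epithelia, had 60 reads in H1299, against 1647 in A549 (24.97-fold lower, 95% interval 19.3 to 32.9). GCLC and GCLM, the subunits of the enzyme that limits glutathione synthesis, were lower by a like factor, with 631 reads in H1299, 3752 in A549 for GCLC (5.41-fold lower, 95% interval 4.97 to 5.89) and 575 reads in H1299, 3490 in A549 for GCLM (5.52-fold lower, 95% interval 5.05 to 6.04). The smallest difference of the role was that of thioredoxin itself, TXN, with 7782 reads in H1299, against 19186 in A549 (2.24-fold lower). Among genes of iron and heme, the ferritin chain genes FTL (1953 reads in H1299, against 26029 in A549) and FTH1 (2040 reads in H1299, against 18193 in A549) were 12.1-fold lower and 8.11-fold lower, and the heme oxygenase HMOX1 was 3.65-fold lower. The exporters of conjugated drugs ABCC2 (186 reads in H1299, 5260 in A549) and ABCC3 (128 reads in H1299, 4565 in A549) were 25.7-fold lower and 32.4-fold lower.

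The promoters of 3 members called lower are shown because they carry the letters TGACNNNGC, the core of the antioxidant response element through which NRF2 acts, within 250 bases before to 50 bases after the start of the gene. They are from RefSeq (GRCh38.p14), 5′ to 3′ on the strand of the gene, with each match on either strand in capitals; on the opposite strand the letters appear as their reverse complement.
PGD, chr1:10398814-10399113, plus strand: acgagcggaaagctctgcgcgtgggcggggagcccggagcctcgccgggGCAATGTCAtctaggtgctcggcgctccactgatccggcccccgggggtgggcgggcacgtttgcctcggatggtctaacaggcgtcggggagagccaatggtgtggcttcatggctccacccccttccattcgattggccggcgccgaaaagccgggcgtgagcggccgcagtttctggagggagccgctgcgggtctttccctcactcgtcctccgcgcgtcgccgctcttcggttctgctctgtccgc
TXNRD1, chr12:104215529-104215828, plus strand: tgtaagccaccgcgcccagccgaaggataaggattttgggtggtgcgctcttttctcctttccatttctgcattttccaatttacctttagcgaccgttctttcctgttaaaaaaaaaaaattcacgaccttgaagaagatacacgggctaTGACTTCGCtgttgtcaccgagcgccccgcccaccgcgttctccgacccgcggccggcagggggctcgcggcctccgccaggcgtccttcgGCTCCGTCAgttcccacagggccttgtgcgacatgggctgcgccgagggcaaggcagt
GCLM, chr1:93909381-93909680, minus strand: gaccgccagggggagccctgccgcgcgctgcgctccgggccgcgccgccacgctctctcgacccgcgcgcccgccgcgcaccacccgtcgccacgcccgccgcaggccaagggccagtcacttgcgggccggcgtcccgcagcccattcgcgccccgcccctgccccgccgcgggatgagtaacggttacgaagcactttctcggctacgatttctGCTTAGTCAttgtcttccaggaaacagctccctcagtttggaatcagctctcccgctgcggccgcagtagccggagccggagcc
The match of PGD began 201 bases before the start, and TXNRD1, the thioredoxin reductase (3790 reads in H1299, against 20633 in A549, 4.95-fold lower), had a pair of matches. Of the 36 targets, 26 had a promoter in the table and 7 of these held the letters (26.9%), against 2122 of 14855 promoters of all genes (14.3%). The 7 were GCLM, GPX2, TXNRD1, CBR1, PGD, ME1 and PIR. A match is a string of letters and not a measured site.

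Families related to the NRF2 list were lower in part, and some share members with it. Aldo-keto reductases, 4 of which are on that list, had 0 of 12 higher and 7 lower, median -3.81, with AKR1B1, the aldose reductase of the polyol pathway, at 605 reads in H1299, against 11855 in A549 (17.8-fold lower) and AKR1A1 (383 reads in H1299, 844 in A549) and AKR7A2 (637 reads in H1299, 732 in A549) not called. Aldehyde dehydrogenases had 0 of 18 higher and 8 lower, median -0.81. ALDH1A1, which makes retinoic acid and marks stem-like cells in some tissues (chr9:75515587-75695358), had 1219 reads in H1299, against 134294 in A549 (100.2-fold lower, 95% interval 94.7 to 106.1). ALDH3A1, which protects the cornea from aldehydes, had 153 reads in H1299, against 12001 in A549 (71.4-fold lower), while the mitochondrial folate enzyme ALDH1L2, with most reads after ALDH1A1, had 14721 reads in H1299, against 19199 in A549 and was not called. Glutathione transferases had 1 of 19 higher and 4 lower, median -0.25, with MGST1 15.2-fold lower and GSTP1 5.1-fold lower, but GSTM2 2.7-fold higher (211 reads in H1299, 86 in A549). Cytochromes P450 had 1 of 53 higher and 5 lower, median 0.13, the far end being CYP24A1, which degrades vitamin D, with 351 reads in H1299, against 18586 in A549 (48.2-fold lower, 95% interval 43.3 to 53.7). UDP-glucuronosyltransferases had 0 of 19 higher and 1 lower, median -0.36, and ABC transporters had 2 of 45 higher and 7 lower, median -0.13. Of the ABC transporters called lower, ABCC1, ABCC2 and ABCC3 are on the NRF2 list, and of the UDP-glucuronosyltransferases UGT1A6 is on it, which was not called.

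Keratins, the intermediate filaments of epithelial cells, were lower in H1299 with none higher (0 of 55 higher and 15 lower, median -0.51). KRT8 and KRT18, the pair of simple epithelia, differed by unequal amounts, KRT8 with 10116 reads in H1299, against 153244 in A549 (13.8-fold lower, 95% interval 13.5 to 14.1) and KRT18 with 30113 reads in H1299, against 150649 in A549 (4.55-fold lower, 95% interval 4.5 to 4.61). KRT7, a keratin of glandular and airway cells at chr12:52626304-52645970, had 402 reads in H1299, against 40838 in A549 (92.4-fold lower, 95% interval 83.8 to 102.2) and 21801 in HBE, and KRT19 was 29.96-fold lower (87 reads in H1299, 2865 in A549). The smallest ratio of all named genes was that of the hair keratin KRT82, with 143 reads in H1299, against 22915 in A549 (145.8-fold lower, 95% interval 123.7 to 173.1). The keratins that remained uncalled were mostly genes of skin and hair with few reads, and KRT13, a keratin of stratified mucosa, was among them with 546 reads in H1299, 1057 in A549.

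Related genes can share reads, and how the mapping divided them could not be read from the counts. Cut into 30-nt words, the transcripts of KRT81 had 43.5% of their words in KRT86, and those of AKR1C1 had 31.5% in AKR1C2, whereas KRT82 shared 1.64% with KRT81 and AKR1B10 had 19.2% in AKR1B15. Such words count exact matches only, and each gene was compared with few relatives. A low share therefore does not show that the reads of a gene were its own. Summed over KRT81 to KRT86, the hair keratins had 1068 reads in H1299, against 82759 in A549 (70.5-fold lower, 95% interval 66.4 to 74.95). Summed over AKR1C1 to AKR1C4, the AKR1C genes had 1294 reads in H1299, against 117229 in A549 (82.4-fold lower, 95% interval 78.02 to 87.1). The sums were formed after the values of the members had been seen. KRT84, with 56 reads in H1299, 107 in A549, was the member of KRT81 to KRT86 that was not called.

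The wider epithelial list was divided (0 of 33 higher and 12 lower, median -0.32). CDH1, the adhesion protein E-cadherin at chr16:68771195-68869440, had 85 reads in H1299, against 884 in A549 (9.46-fold lower, 95% interval 7.57 to 11.96) and 4587 in HBE. The surface protein EPCAM had 61 reads in H1299, against 541 in A549 (8.07-fold lower), and HBE with 18183 reads stood far above both cancer lines. JUP, the junction protein plakoglobin (127 reads in H1299, 3600 in A549), the epithelial factor ELF3 (236 reads in H1299, 5345 in A549) and the protease inhibitor SPINT2 (139 reads in H1299, 4943 in A549) were 25.8-fold lower, 20.6-fold lower and 32.4-fold lower. In contrast, the tight junction genes CLDN4 (177 reads in H1299, 182 in A549) and CLDN7 (112 reads in H1299, 102 in A549) and the splicing regulator ESRP1 (168 reads in H1299, 162 in A549) were low in both lines and not called, with 4333 reads of ESRP1 in HBE. Without the keratins, the junction genes of the list had 0 of 17 higher and 5 lower, median -0.28. Of the 33 genes of the epithelial list, 17 had a promoter sequence, which is not the same set as the 17 junction genes. The letters CACCTG, the E-box that ZEB and SNAI factors bind, stood in 6 of these 17 promoters (35.3%) and in 19.7% of all promoters. The other genes of the list were not searched. Of these 6 genes, DSP and ELF3 were called lower. CLDN3, CRB3, OCLN and RAB25 were not called, and OCLN and RAB25 had log2 ratios of 1.01 and 0.85. Whether any factor binds these letters was not tested.

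S100 proteins, small calcium sensors, had 0 of 17 higher and 7 lower, median -0.71. S100A4, which is linked to cell motility (chr1:153516089-153522612), had 164 reads in H1299, against 12774 in A549 (70.9-fold lower, 95% interval 60.7 to 83.2). S100A6, encoded near it (chr1:153507075-153508720), had 214 reads in H1299, against 16482 in A549 (70.1-fold lower, 95% interval 61.2 to 80.6). HBE had 202 reads of S100A4, near H1299, but 10489 of S100A6, near A549, so the neighbours did not share the pattern across the 3 lines. S100A10, the partner of annexin A2, was lower by less (1572 reads in H1299, 8442 in A549, 4.89-fold lower), and S100A13 (2089 reads in H1299, 1774 in A549) was not called.

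Genes of the liver and of secreted plasma proteins, some of which A549 is known to make, had 1 of 37 higher and 7 lower, median -0.60. The 3 fibrinogen chains, encoded next to each other on chromosome 4, were all lower in H1299. FGA had 135 reads in H1299, against 2109 in A549 (14.2-fold lower), FGB had 204 reads in H1299, against 2607 in A549 (11.6-fold lower) and FGG had 42 reads in H1299, against 1109 in A549 (24.02-fold lower). CPS1, which opens the urea cycle, was 9.16-fold lower (246 reads in H1299, 2478 in A549), and the endoderm factor FOXA2 was 6.67-fold lower (128 reads in H1299, 938 in A549). Against this direction ran APOE, the lipoprotein of the brain and the liver, with 997 reads in H1299, against 66 in A549 (16.6-fold higher, 95% interval 12.9 to 21.6). Albumin (ALB, 48 reads in H1299, 43 in A549) and transthyretin (TTR, 11 reads in H1299, 30 in A549) had few reads in both lines. The site of the liver factor HNF1, searched as 11 letters on both strands, stood in 0 of 25 promoters of the list. Over all genes it stood in 14 of 14855 promoters (0.0942%). A string this rare can hardly be met in 25 promoters, so the search cannot show whether the list lacks HNF1 sites.

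**Figure D3:**
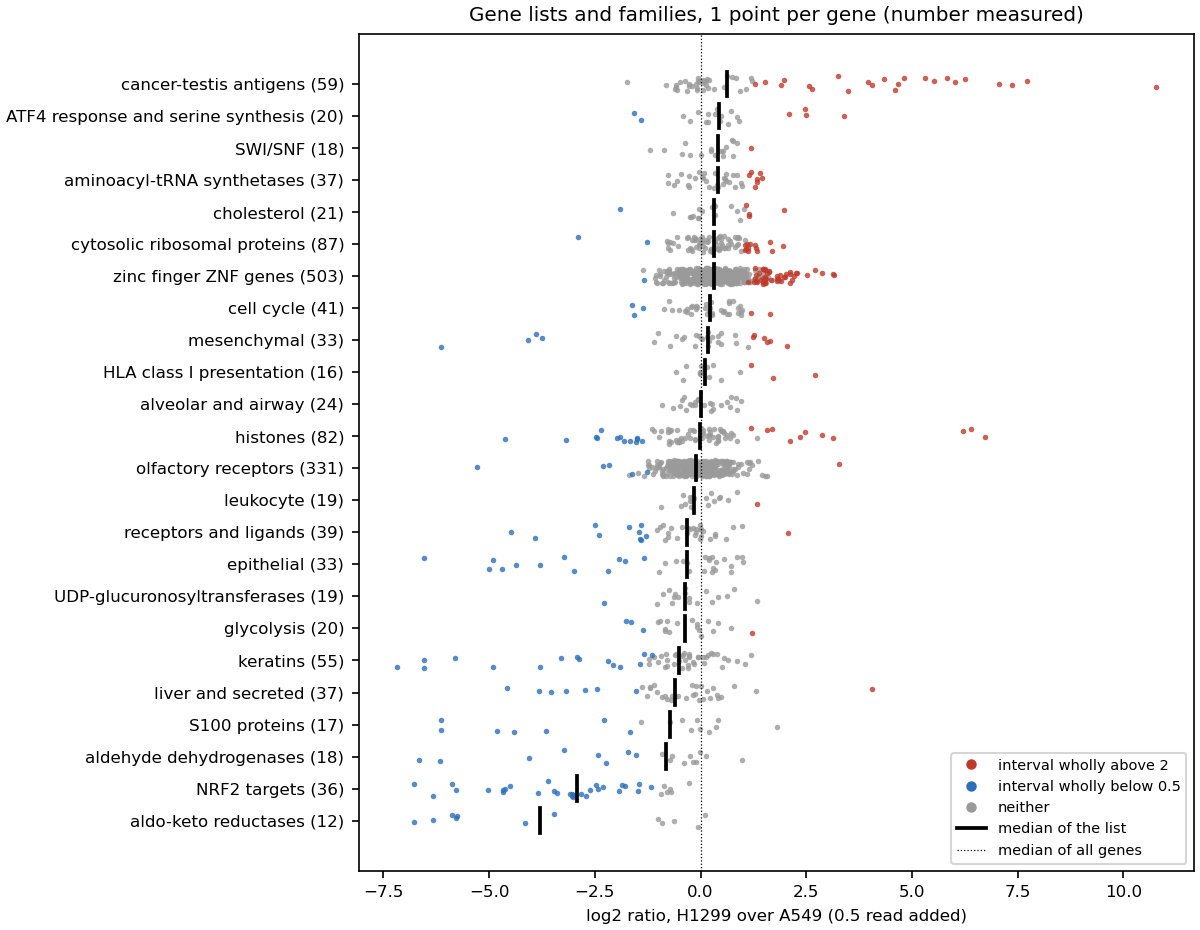
Log2 ratio of H1299 over A549 (0.5 read added) for the measured members of 24 gene lists and families, ordered by their median, with 1 point per gene and the number measured in brackets. Red points have an interval wholly above 2, blue points one wholly below 0.5; bars mark list medians and the dotted line the median of all genes at 0.02. NRF2 targets and aldo-keto reductases have medians of -2.92 and -3.81, and the cancer-testis antigens hold the highest points.

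At the upper end of the ratios stood genes of the germ line. Of 111 names of cancer-testis antigen families, 59 had at least 20 reads over both libraries, of which 23 were called higher in H1299 and 0 lower, with a median log2 ratio of 0.64. Since a member silent in A549 could pass the minimum only through H1299, the share among those measured does not stand for the families. GAGE8 had 40348 reads in H1299, against 25 in A549 (1774-fold higher, 95% interval 1202 to 2742), the largest ratio among genes with reads in both lines, and 30 in HBE. MAGEA4, of the MAGE family, encoded at chrX:151080967-151093643, had 6702 reads in H1299, against 44 in A549 (167.4-fold higher, 95% interval 124.6 to 230.7). GAGE5 had 34 reads in H1299 and 0 in A549, which is at least 12.5-fold higher when 3 reads are put in place of 0.

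The members of these families are close copies, and single values are uncertain for that reason. Of the 30-nt words in MAGEA3 transcripts, 59.9% also occurred in MAGEA6, whereas MAGEA4 shared 0.232% with MAGEA3. These are exact matches, and MAGEA4 was compared with no other member, so its low share does not show that its reads were its own. Summed over the family, the GAGE genes had 43590 reads in H1299, against 372 in A549 (128.8-fold higher, 95% interval 116.3 to 143.03) and the MAGEA genes had 14040 reads in H1299, against 825 in A549 (18.7-fold higher, 95% interval 17.4 to 20.1). Within MAGEA the members ran from MAGEA8 (292 reads in H1299, 169 in A549, not called) to MAGEA4. Not all germ cell antigens separated the lines. PRAME, a repressor of retinoic acid signalling, had 4470 reads in H1299, against 3369 in A549 and was not called, while HBE had 76 reads. The XAGE member with most reads, XAGE1C, had 13535 reads in H1299, against 4007 in A549 (3.71-fold higher, 95% interval 3.58 to 3.85), so A549 held many of its footprints too. BAGE4 (13178 reads in H1299, 12758 in A549) lay near 1 with 25128 reads in HBE.

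Germ line genes outside the antigen families were also among the largest ratios. RHOXF2, a homeobox gene of the testis on the X chromosome (chrX:119292519-119299536), had 4021 reads in H1299, against 39 in A549 (113.3-fold higher, 95% interval 82.8 to 159.6), with 41.4% of its 30-nt words in its copy RHOXF2B. TDRD12, a helicase of the piRNA pathway that silences transposons in germ cells (chr19:33210659-33320486), had 5259 reads in H1299, against 63 in A549 (91.8-fold higher, 95% interval 71.6 to 119.6). Its relative TDRD9, chosen after its values were seen, had 947 reads in H1299, against 128 in A549 (8.13-fold higher), and GTSF1, another factor of that pathway and likewise chosen, had 691 reads in H1299, against 44 in A549 (17.3-fold higher). Other genes of the pathway were not called, among them PIWIL2 (209 reads in H1299, 214 in A549), DDX4 (920 reads in H1299, 773 in A549), MAEL (288 reads in H1299, 302 in A549) and TDRD1 (434 reads in H1299, 502 in A549). HBE had 66 reads of TDRD12 and 28 of RHOXF2, close to the counts of A549.

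Other genes with large ratios were not of the germ line. G0S2, an inhibitor of the fat lipase ATGL (chr1:209848757-209849735), had 1727 reads in H1299, against 35 in A549 (54.2-fold higher, 95% interval 38.8 to 78.1). FOSL1, which encodes the AP-1 subunit FRA1 (chr11:65659520-65668044), had 4334 reads in H1299, against 165 in A549 (28.9-fold higher, 95% interval 24.7 to 33.9). UAP1, which makes the sugar nucleotide UDP-GlcNAc (chr1:162531512-162571030), had 11859 reads in H1299, against 475 in A549 (27.4-fold higher, 95% interval 25.04 to 30.1). HBE had 30 reads of G0S2, 144 of FOSL1 and 688 of UAP1, closer to A549 in each case.

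Mesenchymal genes went both ways (6 of 33 higher and 4 lower, median 0.17). VIM, the intermediate filament vimentin at chr10:17270240-17279592, had 43694 reads in H1299, against 15327 in A549 (3.13-fold higher, 95% interval 3.08 to 3.19), while HBE had only 124 reads, so both cancer lines were far above HBE. TWIST1, a factor of mesoderm, had 440 reads in H1299, against 116 in A549 (4.17-fold higher, 95% interval 3.39 to 5.16), and the receptor kinase AXL was 2.97-fold higher (9427 reads in H1299, 3493 in A549). The factors ZEB1 (992 reads in H1299, 784 in A549) and ZEB2 (757 reads in H1299, 628 in A549) and N-cadherin, CDH2 (1064 reads in H1299, 832 in A549), were not called. Among matrix genes, fibronectin FN1 had 918 reads in H1299, against 13611 in A549 (13.5-fold lower, 95% interval 12.6 to 14.4), TGFBI was 17.03-fold lower (659 reads in H1299, 12335 in A549) and COL5A2 14.9-fold lower (187 reads in H1299, 3064 in A549), whereas fibrillin FBN1 was 2.35-fold higher (1564 reads in H1299, 732 in A549). The matrix genes of the list as a role had 2 of 14 higher and 3 lower, median 0.10.

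Matrix and adhesion families also lay on both sides. Collagens had 2 of 44 higher and 4 lower, median -0.07, with the basement membrane chain COL4A2 4.48-fold lower. Integrins had 1 of 30 higher and 4 lower, median -0.03, with ITGA4, the alpha chain of leukocyte and neural crest cells, at 2041 reads in H1299, against 276 in A549 (8.13-fold higher, 95% interval 7.17 to 9.25) and the common beta chain ITGB1 at 11315 reads in H1299, against 31832 in A549 (2.56-fold lower). Laminins, the trimers of basement membranes, had 3 of 12 higher and 3 lower, median -0.45. LAMA4 had 3167 reads in H1299, against 57602 in A549 (16.5-fold lower, 95% interval 15.96 to 17.2), while LAMB3 (711 reads in H1299, 299 in A549) was 2.61-fold higher. LAMA3, which joins LAMB3 in a trimer, had 897 reads in H1299, 1727 in A549 and was not called. Cadherins and protocadherins had 4 of 88 higher and 2 lower, median -0.07, claudins had 1 of 22 higher and 1 lower, median -0.12, and serpins had 1 of 35 higher and 2 lower, median -0.03.

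Urokinase and its receptor, of the plasminogen system, were higher in H1299. PLAUR, the urokinase receptor, had 6857 reads in H1299, against 750 in A549 (10.05-fold higher, 95% interval 9.32 to 10.9), and PLAU, urokinase itself, had 5330 reads in H1299, against 961 in A549 (6.1-fold higher, 95% interval 5.69 to 6.54). SERPINE2, an inhibitor of urokinase, was 5.48-fold lower (477 reads in H1299, 2874 in A549). Of the metalloproteinases, MMP1, a collagenase, had 273 reads in H1299, against 58 in A549 (5.17-fold higher) and MMP7, an epithelial matrilysin, had 38 reads in H1299, against 1083 in A549 (25.9-fold lower). The inhibitors TIMP1 (1937 reads in H1299, 696 in A549) and TIMP2 (1208 reads in H1299, 5104 in A549) lay on opposite sides. Over the list of matrix proteases and their inhibitors the result was 4 of 18 higher and 5 lower, median 0.19.

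Targets of the Hippo effector YAP had 4 of 11 higher and 2 lower, median 0.16. The matrix signalling proteins CYR61 (chr1:86046444-86050272) and CTGF (chr6:132269316-132272512), which are the best known of them, were both higher in H1299. CYR61 had 7753 reads in H1299, against 783 in A549 (10.9-fold higher, 95% interval 10.1 to 11.7), CTGF had 1584 reads in H1299, against 198 in A549 (8.79-fold higher, 95% interval 7.58 to 10.2), and NT5E, the surface nucleotidase CD73, had 5008 reads in H1299, against 531 in A549 (10.4-fold higher, 95% interval 9.48 to 11.4). The list did not move as one, since ANKRD1 (348 reads in H1299, 481 in A549), LATS2 (867 reads in H1299, 853 in A549) and AJUBA (515 reads in H1299, 854 in A549) were not called and TEAD1, the DNA-binding partner of YAP, was 2.4-fold lower (875 reads in H1299, 2307 in A549).

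Growth factor receptors and ligands had 1 of 39 higher and 10 lower, median -0.31. The receptor kinases called lower were MET (1418 reads in H1299, 4136 in A549), IGF1R (888 reads in H1299, 5201 in A549) and FGFR4 (127 reads in H1299, 456 in A549), while EGFR (1012 reads in H1299, 2050 in A549) and ERBB2 (712 reads in H1299, 1411 in A549) were 1.84-fold lower and 1.8-fold lower and not called. TGFBR2, the type II receptor of TGF-beta, was 2.65-fold lower (1356 reads in H1299, 3944 in A549). Ligands of EGFR lay on both sides, amphiregulin AREG with 31 reads in H1299, against 771 in A549 (22.6-fold lower) and HBEGF with 172 reads in H1299, against 45 in A549 (4.2-fold higher). DKK1, which blocks WNT signalling, had 682 reads in H1299, against 11240 in A549 (14.99-fold lower, 95% interval 13.9 to 16.2). Cytokines had 1 of 18 higher and 5 lower, median -0.39, with the neutrophil chemokines CXCL2 at 785 reads in H1299, against 37 in A549 (23.3-fold higher, 95% interval 16.8 to 33.4) and CXCL5 at 151 reads in H1299, against 1390 in A549 (8.37-fold lower, 95% interval 7.08 to 9.97) on opposite sides.

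Interferon-stimulated genes had 2 of 26 higher and 3 lower, median 0.04. ISG15, a ubiquitin-like protein, had 1454 reads in H1299, against 161 in A549 (9.93-fold higher, 95% interval 8.43 to 11.8) and the RNA sensor IFIH1 was 3.3-fold higher, but OAS1, which activates RNase L, had 95 reads in H1299, against 929 in A549 (8.9-fold lower, 95% interval 7.2 to 11.1). IFITM3, which keeps viruses from entering cells and was named after its values were seen, had 638 reads in H1299, against 30 in A549 (23.4-fold higher, 95% interval 16.2 to 34.9) and 7841 in HBE, and 12.9% of its 30-nt words occurred in IFITM2, which had 895 reads in H1299, against 833 in A549. Antigen presentation by HLA class I had 3 of 16 higher and 0 lower, median 0.11. HLA-B had 1174 reads in H1299, against 196 in A549 (6.58-fold higher, 95% interval 5.66 to 7.7), whereas HLA-C (1656 reads in H1299, 1839 in A549) and the light chain B2M (1880 reads in H1299, 2098 in A549) had ratios near 1. HLA alleles differ between people and the genes resemble each other, so the division of reads among them is uncertain.

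Genes of the response to amino acid shortage through ATF4, with those of serine synthesis, had 4 of 20 higher and 2 lower, median 0.43. DDIT3, the stress factor CHOP (chr12:57910371-57915520), had 752 reads in H1299, against 78 in A549 (10.6-fold higher, 95% interval 8.39 to 13.6). ASNS, the asparagine synthetase (chr7:97480989-97501854), had 11193 reads in H1299, against 2183 in A549 (5.64-fold higher, 95% interval 5.38 to 5.9), and CHAC1, which degrades glutathione, had 466 reads in H1299, against 119 in A549 (4.3-fold higher). ATF4 itself (2346 reads in H1299, 1371 in A549) was 1.88-fold higher and not called, and the serine enzymes PSAT1 (3193 reads in H1299, 2135 in A549) and PSPH (714 reads in H1299, 715 in A549) were not called. SLC7A5, the carrier of large neutral amino acids, ran the other way (4092 reads in H1299, 13317 in A549, 2.96-fold lower). Aminoacyl-tRNA synthetases, which load tRNAs and of which several respond to ATF4, had 7 of 37 higher and 0 lower, median 0.41, with GARS at 20621 reads in H1299, against 8956 in A549 (2.53-fold higher). Amino acid transporters had 2 of 55 higher and 5 lower, median -0.01, and chaperones of the endoplasmic reticulum had 0 of 18 higher and 2 lower, median -0.24, with HSPA5, the chaperone BiP, near 1 (13694 reads in H1299, 12770 in A549).

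Cholesterol synthesis and uptake had 4 of 21 higher and 1 lower, median 0.33. FDPS, the farnesyl diphosphate synthase, had 7575 reads in H1299, against 3939 in A549 (2.11-fold higher, 95% interval 2.03 to 2.2), LSS, the lanosterol synthase, had 1887 reads in H1299, against 939 in A549 (2.21-fold higher, 95% interval 2.04 to 2.39), and HMGCS1, the synthase of HMG-CoA, had 4275 reads in H1299, against 3679 in A549 and was not called. Glycolysis had 1 of 20 higher and 3 lower, median -0.38. The hexokinase HK2 was 2.34-fold higher (2764 reads in H1299, 1297 in A549), the lactate dehydrogenase LDHA had 9821 reads in H1299, against 33726 in A549 (3.12-fold lower), and the lactate carrier SLC16A1 was 3.4-fold lower (8209 reads in H1299, 30661 in A549). Cell cycle genes had 2 of 41 higher and 3 lower, median 0.23, with the helicase subunit MCM7 2.28-fold higher and TOP2A, the topoisomerase of mitotic chromosomes, at 5746 reads in H1299, against 18657 in A549 (2.95-fold lower). MKI67, which encodes the proliferation marker Ki-67, had 5532 reads in H1299, against 8627 in A549 and was not called. Members of the BCL2 family had 1 of 16 higher and 2 lower, median 0.0015, with MCL1 2.31-fold higher (2273 reads in H1299, 1082 in A549) and BCL2L1 2.45-fold lower (652 reads in H1299, 1758 in A549), both inhibitors of apoptosis.

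Nerve and neuroendocrine genes had 2 of 27 higher and 1 lower, median 0.12. The neurofilaments INA (1783 reads in H1299, 697 in A549) and NEFH (571 reads in H1299, 141 in A549) were 2.81-fold higher and 4.45-fold higher, and the adhesion protein CADM1 was 18.1-fold lower (50 reads in H1299, 994 in A549). UCHL1, a deubiquitinase of neurons, was abundant in both lines (18188 reads in H1299, 11656 in A549) and had 134 reads in HBE. HOX genes had 2 of 39 higher and 0 lower, median 0.14, the called ones being HOXB2 (364 reads in H1299, 82 in A549) and HOXB4 (380 reads in H1299, 93 in A549). Imprinted genes had 0 of 18 higher and 2 lower, median -0.06, and subunits of the SWI/SNF remodeller had 1 of 18 higher and 0 lower, median 0.41, with SMARCB1 2.29-fold higher (3566 reads in H1299, 1708 in A549).

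The machinery that every cell uses lay near the middle and mostly a little above it. Cytosolic ribosomal proteins had 13 of 87 higher and 2 lower, median 0.32 and summed to 34283 RPM in H1299, against 25548 RPM in A549. RPL9 had 75441 reads in H1299, against 26388 in A549 (3.14-fold higher, 95% interval 3.1 to 3.19) and RPL5 had 36811 reads in H1299, against 12640 in A549 (3.2-fold higher), while RPL22L1, a paralog of RPL22, was 2.39-fold lower (794 reads in H1299, 2086 in A549). Ribosomal protein genes have many processed pseudogenes, so single values are uncertain. Mitochondrial ribosomal proteins had 4 of 77 higher and 0 lower, median 0.19, subunits of the respiratory chain had 8 of 84 higher and 2 lower, median 0.18, and factors of initiation and elongation had 3 of 63 higher and 0 lower, median 0.32. EEF1A1, the elongation factor that brings tRNAs to the ribosome, lay at the edge of a call, with 149625 reads in H1299, against 82044 in A549 (2.005-fold higher, 95% interval 1.99 to 2.02). Proteasome subunits had 3 of 39 higher and 0 lower, median 0.16, SR splicing factors had 0 of 12 higher and 0 lower, median 0.16, and tubulins had 2 of 17 higher and 1 lower, median 0.43. Heat shock proteins and chaperonins had 7 of 81 higher and 5 lower, median 0.17 and summed to 26994 RPM in H1299, against 14913 RPM in A549. HSP90AA1, the inducible HSP90, made up much of this sum with 378467 reads in H1299, against 132955 in A549 (3.13-fold higher, 95% interval 3.11 to 3.15), beside HSP90AB1, its constitutive relative, at 62714 reads in H1299, against 39349 in A549 (1.75-fold higher).

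Histone genes ranged more widely than any of these families, but their sums by class differed by at most 1.28-fold. Of the replication-dependent histone genes, whose copies stand in clusters and encode nearly the same proteins, the result was 11 of 82 higher and 13 lower, median -0.0023. HIST1H3G had 5413 reads in H1299, against 56 in A549 (106.3-fold higher, 95% interval 81.7 to 140.8) and HIST1H2AE had 9948 reads in H1299, against 147 in A549 (74.4-fold higher, 95% interval 63.2 to 88.2), while HIST1H3C had 45 reads in H1299, against 1237 in A549 (25.01-fold lower, 95% interval 18.6 to 34.5). HBE had 3869 reads of HIST1H3G and 8973 of HIST1H2AE, so that A549 was the line apart for both. Summed over each class, H3 genes had 43853 reads in H1299, against 47497 in A549 (1.01-fold higher, 95% interval 1.002 to 1.03), H4 genes had 32615 reads in H1299, against 36408 in A549 (1.02-fold lower, 95% interval 1.0004 to 1.03), and H2A genes had 94502 reads in H1299, against 81314 in A549 (1.28-fold higher, 95% interval 1.27 to 1.29). H2B genes (1.14-fold lower, 95% interval 1.12 to 1.16) and H1 genes (1.26-fold lower, 95% interval 1.23 to 1.29) completed the classes. The sums were formed after the values had been seen. Copies that carry the same bases at a position cannot be told apart by a short read, and how the mapper divided such reads was not tested. In the pair of H3 genes compared by 30-nt words, HIST1H3G shared 0 of its 467 words with HIST1H3D. Both were called higher in H1299, with log2 ratios of 6.72 and 6.38, and such words count exact matches only. HIST1H3G was not compared with HIST1H3C or another copy called lower, so the pair cannot show whether reads were divided between copies on opposite sides.

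**Figure D4:**
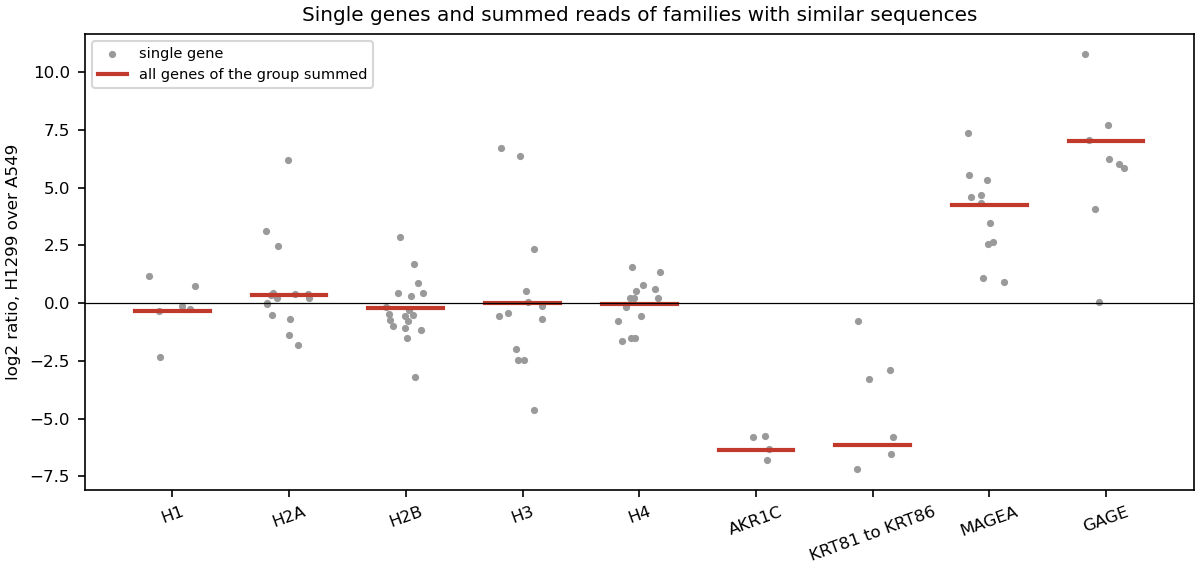
Log2 ratio of H1299 over A549 for single genes (grey) and for the summed reads (red bars) of histone classes and of 4 families of close copies. Single H3 genes run from HIST1H3C, 25.01-fold lower, to HIST1H3G, 106.3-fold higher, while the sum of the class is 1.01-fold higher, whereas the sums of AKR1C and KRT81 to KRT86 lie among low members and those of MAGEA and GAGE among high ones.

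Zinc finger genes named ZNF, mostly repressors with arrays of DNA-binding fingers, leaned towards H1299 (48 of 503 higher and 1 lower, median 0.31). On chromosome 19, where many of them lie in clusters, 37 of 241 ZNF genes were called higher (15.4%) and 0 lower, with a median of 0.48. On other chromosomes 11 of 262 were called higher (4.20%), and among the other genes of chromosome 19 it was 52 of 1113 (4.67%), where 4.1% of all genes were. ZNF221 had 485 reads in H1299, against 60 in A549 (8.89-fold higher, 95% interval 6.78 to 11.8) and ZNF625 had 239 reads in H1299, against 29 in A549 (9.06-fold higher, 95% interval 6.15 to 13.8), both on chromosome 19. These genes had few reads, with a median of 8.08 RPM in H1299 and 5.30 RPM in A549 for those on chromosome 19. Olfactory receptors, genes with no known use in these cells, had still fewer reads, with a median of 0.948 RPM in H1299 and 0.99 RPM in A549, at which few genes can be called, and had 1 of 331 higher and 5 lower, median -0.11.

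Ratios also differed by chromosome, a division that was looked at after the values had been seen. On chromosome 6, 127 of 1001 genes were called higher in H1299 (12.7%) and 44 lower (4.40%), with a median of 0.26, and without histone genes 117 of 946 were higher (12.4%). Among genes in the upper 40% of level, 103 of 438 on chromosome 6 were called higher (23.5%), with a median of 0.50, where over all chromosomes it was 7.04% and 0.05. Of 16 windows of 10 Mb with at least 20 genes along this chromosome, 15 had a median above 0.1 and none was below 0. Other chromosomes lay on this side by less. In the upper 40% of level, 12.2% of the genes were called higher on chromosome 21 and 10.9% on chromosome 18, with medians of 0.28 and 0.30. Windows with a high median were also met elsewhere, as at 20 to 30 Mb of chromosome 19, with 6 of 30 genes higher and a median of 0.75. Chromosome 17 lay on the other side, with 14 of 1106 genes higher (1.27%) and 87 lower (7.87%), and a median of -0.24 in the upper 40% of level. It was not alone there, since 8.28% of the genes were lower on chromosome 20, 7.62% on chromosome 15 and 7.14% on chromosome 10. In the upper 40% of level, 12.4% were lower on chromosome 17 and 14.0% on chromosome 20, where over all chromosomes it was 8.04%. What these chromosomes differ in between the lines was not tested.

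**Figure D5:**
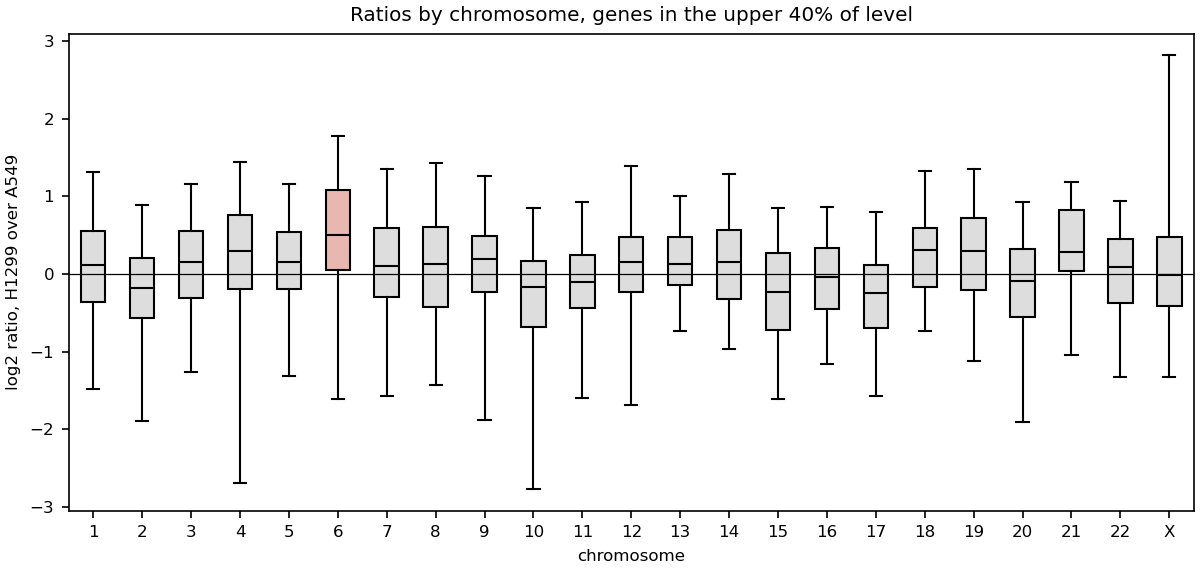
Log2 ratio of H1299 over A549 by chromosome for genes in the upper 40% of level per length. Boxes span the quartiles with the median as a line, whiskers reach the 5th and 95th percentiles, and chromosome 6 (red) has a median of 0.50, against 0.05 over all chromosomes.

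HBE could be set beside both lines for each called gene. Of the 767 genes higher in H1299, the level in HBE was nearer to that of A549 for 617 (80.4%). Of the 903 genes lower in H1299, it was nearer to that of H1299 for 476 (52.7%) and to that of A549 for 427 (47.3%). The share over all genes was not computed. Called genes were picked by the values of H1299 and A549, and an extreme value in a line can by itself place HBE nearer to the other. These shares are therefore a description and no measure of how like HBE is to either line. Examples of those nearer to A549 are KRT82, with 20756 reads in HBE, and the aspartoacylase gene ASPA, with 61 reads in H1299, against 4326 in A549 (64.5-fold lower) and 4887 in HBE. ALDH1A1 (700 in HBE) and AGR2, a disulfide isomerase of mucous cells (50 reads in H1299, against 3157 in A549, 230 in HBE), were nearer to H1299. Named after their values were seen, CNRIP1, an interaction partner of a cannabinoid receptor, had 1345 reads in H1299, against 74976 in A549 (50.7-fold lower) and 63927 in HBE, and IGFBP4, which binds insulin-like growth factors, had 294 reads in H1299, against 16087 in A549 (49.8-fold lower) and 1170 in HBE.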

How the data were processed

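Ribosome footprints of H1299, A549 and HBE were analysed, with 1 library per line. According to the methods of the study, rRNA was depleted before library preparation with a kit for small RNAs and HiSeq-2500 sequencing; the authors clipped adapters, cut each read at its first base under Phred 10 and aligned to RefSeq RNA by FANSe2, with no version given in the sources used here. The submitters' processing notes name hg19. The authors deposited raw read counts of each transcript, which were used here. They also deposited RPKM values, which equal the count over transcript length and total count and served as a check.

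Counts were summed per gene symbol over all transcripts (37397 NM and 9842 NR) and divided by the NM reads of the library. Of 329 transcripts without a symbol, 280 were named through the RefSeq gene table, and 72 of 74 transcripts whose symbols had become dates were renamed by accession. Intervals are exact 95% Clopper-Pearson intervals of the split of reads between the 2 libraries. They were tried on simulated Poisson counts, the model that such intervals assume, which says nothing about differences between libraries or about mapping. The 24 gene lists and 29 families, like the members, were chosen with earlier results of these data known. Genes named are the 15 largest and 15 smallest ratios among called genes with at least 200 reads, the 10 genes with most reads, the 10 with most reads among those with an interval within 0.9 to 1.1, genes of the known genotypes, and per list the 3 members with most reads and the 3 furthest called ones in each direction; further list members are named as examples of a role, and other genes where the text says so, all chosen after their values were seen. Y-linked genes count in the totals and are not named. Some genes that this rule names, and the lists that rest on them, are not reported here. Gene positions are those of GENCODE (hg19), and promoters those of RefSeq (GRCh38.p14). The alternatives were TMM and upper quartile factors from edgeR 4.0.16, other denominators, other rows per gene, other minimums, intervals and folds, and 5 reads as the added count. Python 3.11.15, scipy 1.17.1 and R 4.3.3 were used. Read positions and mRNA libraries were not analysed here.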

Additional observations from a re-analysis of the deposited data

Results flagged for a closer look

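Signal outside the coding genes was met among names with non-coding (NR) transcripts only, of at least 200 nt, which the comparison above does not use. Of 3580 such names with at least 20 reads over both libraries, 81 had an interval wholly above 2 (2.26%) and 59 one wholly below 0.5 (1.65%), with a median log2 ratio of H1299 over A549 of 0.05. They held 5308045 reads in H1299 and 5017059 in A549. Whether ribosomes or other protected RNA gave these reads was not tested.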

How the results depend on the processing

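No paired analysis was possible because H1299 and A549 have a single library each, which also meant that none could be left out. The median of all genes was -0.0058 with TMM factors, 0.055 with upper quartile factors and -0.020 with all reads as the denominator, beside 0.02. The count of genes higher in H1299 was 124 with 4 in place of 2 as the fold, and that of genes lower in H1299 was 307; under the other settings the counts lay between 676 and 817 for higher and between 835 and 949 for lower genes, within 1.5 times the values above. With all reads as the denominator, 42.2% of the calls were higher, beside 45.9%. With a minimum of 200 reads the keratins median was -1.14 and the cancer-testis antigens median 2.57, since genes with few reads left these families; the olfactory receptors also moved there, and the other 527 of 530 list medians over all settings moved by less than their spread. Of 208 named genes called apart, 201 to 208 kept their call under the scalings, denominators and rows tried, 200 with 99% intervals and 103 with the fold of 4. Genes with few reads can be called only at large ratios, and a ratio that was not called is not shown to be near 1. With 1 library per line, differences between cultures of the same line were not measured.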
